A study of Mus musculus with 8 samples.

Results

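The transcripts of 10 nucleotide-sugar genes were followed in mouse plasmablasts, which are formed by activated B cells and secrete antibody while they still divide. Members were chosen by gene symbol: Gfpt1, Gnpnat1, Pgm3 and Uap1 of the UDP-N-acetylglucosamine (UDP-GlcNAc) route, Gne, Nans, Cmas and Cmah of the CMP-sialic acid route, and the Golgi carriers Slc35a1 and Slc35a3. All 10 are among the 24413 symbols of the deposited count files, and all 10 passed the filter on low counts, which left 9904 genes for testing. The study asked what loss of Jagn1, which encodes an ER (endoplasmic reticulum) membrane protein, changes in the transcripts of these cells. The 4 knockout libraries came from Jagn1fl/fl Mb1Cre+ mice, in which the Cre recombinase is expressed from the B cell gene Cd79a, and the 4 control libraries from Jagn1fl/fl mice, for which the labels list no Cre. Both groups were C57BL/6J, and share the floxed Jagn1 alleles, so presence of the Cre allele and loss of Jagn1 cannot be told apart. B220+ B cells were taken from the spleen, kept in culture with LPS (25 µg/ml lipopolysaccharide, which drives B cells to divide and secrete antibody) for 4 days, and sorted as CD22-CD138+ cells. The series gives 4 mice per genotype. P-values of single genes set the difference between groups against the spread between these libraries.

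The hexosamine route turns fructose phosphate from glycolysis and the amide nitrogen of glutamine into UDP-GlcNAc, the sugar donor for N-glycans in the ER and Golgi and for the O-GlcNAc mark on nuclear and cytosolic proteins. GFPT1 makes glucosamine phosphate and is the rate-limiting enzyme, GNPNAT1 acetylates it, PGM3 moves its phosphate and UAP1 couples it to uridine. GNE then diverts part of the UDP-GlcNAc to sialic acid, which caps the N-glycans of antibodies and surface receptors. In mouse heart and in cultured cells the ER stress factor XBP1, itself needed for antibody secretion, is known to activate Gfpt1 and other genes of the hexosamine route.

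Promoters were searched for known stress elements, and 3 windows of UDP-GlcNAc genes, those of Gfpt1, Pgm3 and Uap1, are printed below. None of these 3 genes passed the test. Gnpnat1, the 1 gene of this route that passed, had no window and so is not covered. The printed windows are those that hold a short pattern chosen after the first search. RefSeq promoter windows (GRCm38.p6, 250 bases before to 50 bases after the start of the gene) were found for 8 of the 10 genes, all but Gnpnat1 and Nans, with 10 windows in all since Gne and Cmah have 2 each. The windows were searched on both strands for the ATF4 composite element TGATGNAA, the unfolded protein response element TGACGTGG and the ER stress response element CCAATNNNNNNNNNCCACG. None of the 8 genes held any of them, and 3.97%, 0.676% and 0.119% of all 32817 promoter windows do. Shorter patterns, chosen after that search, did occur. The 6 letters GACGTG, the core of the unfolded protein response element, were in 3 of the 10 windows, those of Gfpt1, Pgm3 and Uap1, against 6.37% of all windows. The letters CCACG, the end of the ER stress response element, were in 7 of the 10 windows, from 6 genes, against 32.8% of all windows, and overlap the GACGTG match in Gfpt1 and Pgm3. The letters CCAAT were in 4 of the 10 windows against 37.4% of all windows. These matches are descriptions of sequence and not evidence of binding. The 3 windows with the core are printed from 5′ to 3′ on the strand of the gene, with the core or its reverse complement in capitals, at bases 129 to 134 in Gfpt1 (chr6:87042596-87042895, plus strand), 275 to 280 in Pgm3 (chr9:86571793-86572092, minus strand) and 253 to 258 in Uap1 (chr1:170174915-170175214, minus strand).
Gfpt1: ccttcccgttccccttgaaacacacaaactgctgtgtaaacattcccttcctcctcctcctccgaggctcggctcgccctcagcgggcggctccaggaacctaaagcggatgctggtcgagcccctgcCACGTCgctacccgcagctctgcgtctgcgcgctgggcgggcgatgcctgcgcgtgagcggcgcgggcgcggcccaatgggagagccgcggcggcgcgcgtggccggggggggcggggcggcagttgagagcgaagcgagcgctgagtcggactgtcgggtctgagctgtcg
Pgm3: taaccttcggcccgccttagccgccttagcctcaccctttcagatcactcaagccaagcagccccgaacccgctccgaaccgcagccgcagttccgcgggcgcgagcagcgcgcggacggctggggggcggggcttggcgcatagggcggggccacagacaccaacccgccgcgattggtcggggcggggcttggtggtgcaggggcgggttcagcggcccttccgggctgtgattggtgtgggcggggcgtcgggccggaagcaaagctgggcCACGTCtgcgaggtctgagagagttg
Uap1: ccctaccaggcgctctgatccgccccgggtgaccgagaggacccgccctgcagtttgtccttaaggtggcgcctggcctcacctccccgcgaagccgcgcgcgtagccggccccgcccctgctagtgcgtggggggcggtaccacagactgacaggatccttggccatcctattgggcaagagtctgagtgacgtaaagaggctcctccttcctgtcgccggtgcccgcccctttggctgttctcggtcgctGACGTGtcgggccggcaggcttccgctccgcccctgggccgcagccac

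Library totals ran from 7162089 to 8262474 counts in the knockout and from 5882912 to 10066661 counts in the control (p = 1, two-sided exact permutation test over libraries). For a gene with 0 counts the limit was 0.298 to 0.510 CPM per library, from 3 counts, and such limits cover counting error only. Levels are given as CPM, counts scaled to a common library total that was adjusted by TMM. The libraries read 1 tag at the 3′ end of each transcript, so CPM was not divided by length and levels are compared within a gene only. The targeted gene Jagn1 had 2, 1, 1 and 1 reads in the knockout libraries, replicates 1 to 4, against 19, 35, 16 and 99 reads in the control libraries. Of the plasmablast markers, 9 of 10 were among the symbols and all 9 had counts in every library, with a summed level of 21215 to 27254 CPM in the knockout and 27378 to 34486 CPM in the control. Most of this sum was Mzb1, at 15260 to 22220 CPM in the knockout and 19660 to 22000 CPM in the control. Sdc1, Tnfrsf17, Slamf7, Cd93 and Jchain were lower in the knockout (edgeR adjusted p 4.35e-05 to 0.0122), while Prdm1, Irf4, Xbp1 and Mzb1 did not pass. Sdc1, which encodes the sorting marker CD138, was at 16.8 to 23.4 CPM in the knockout and 33.0 to 56.7 CPM in the control, and Cd22 at 4.72 to 8.86 and 2.53 to 10.8 CPM. Summed B cell and sort markers were at 1167 to 1302 CPM in the knockout and 1273 to 1672 CPM in the control, among them Cd79a, which carries the Cre, at 116 to 173 and 220.5 to 396 CPM. Summed T cell markers were at 6.90 to 10.5 CPM in the knockout and 12.2 to 19.7 CPM in the control, myeloid markers at 2.15 to 5.18 and 1.07 to 2.95 CPM, NK markers at 0 to 1.97 and 0 to 2.92 CPM, and erythroid and platelet markers at 0 to 0.240 and 0 to 0.139 CPM. The myeloid genes Lyz2, Cd14, S100a8 and S100a9 were at 0 in all 8 libraries. The part of the plasmablast, B cell and T cell marker differences in the results was not tested. In these bulk libraries a lower share of a cell type and less RNA per cell cannot be told apart. The libraries farthest from their own group were control replicates 1 and 4, whose log2 levels deviated by 0.594 and 0.581 (root mean square over genes), where the other 6 libraries had 0.324 to 0.432.

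Gnpnat1, which acts right after Gfpt1 in the UDP-GlcNAc route, was 2.30-fold higher in the knockout. The other 9 genes did not pass the test in either direction. Across all genes tested, 5.74% passed the edgeR test (threshold 0.05 after adjustment), with 2.54% rising and 3.19% falling, so that 1 of 10 members is close to the background. The groups did not overlap for 1 of the 10 members either, again Gnpnat1, against 13.1% of all genes tested (6.45% higher and 6.64% lower in the knockout). The median log2 fold change was 0.03 over the 10 genes and -0.01 over all genes tested. By route the medians were 0.36 over the 4 UDP-GlcNAc genes, and -0.02 over the 4 CMP-sialic acid genes, while the carriers had -0.11 and -0.39. Fitted values were above 0 for 4 of the 4 UDP-GlcNAc genes and for 4827 of the 9904 genes tested, but Gfpt1 was at -0.00042 without control replicate 1, and Pgm3 was below 0 in 3 of 18 alternatives. The routes were not tested against each other.

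**Figure D1:**
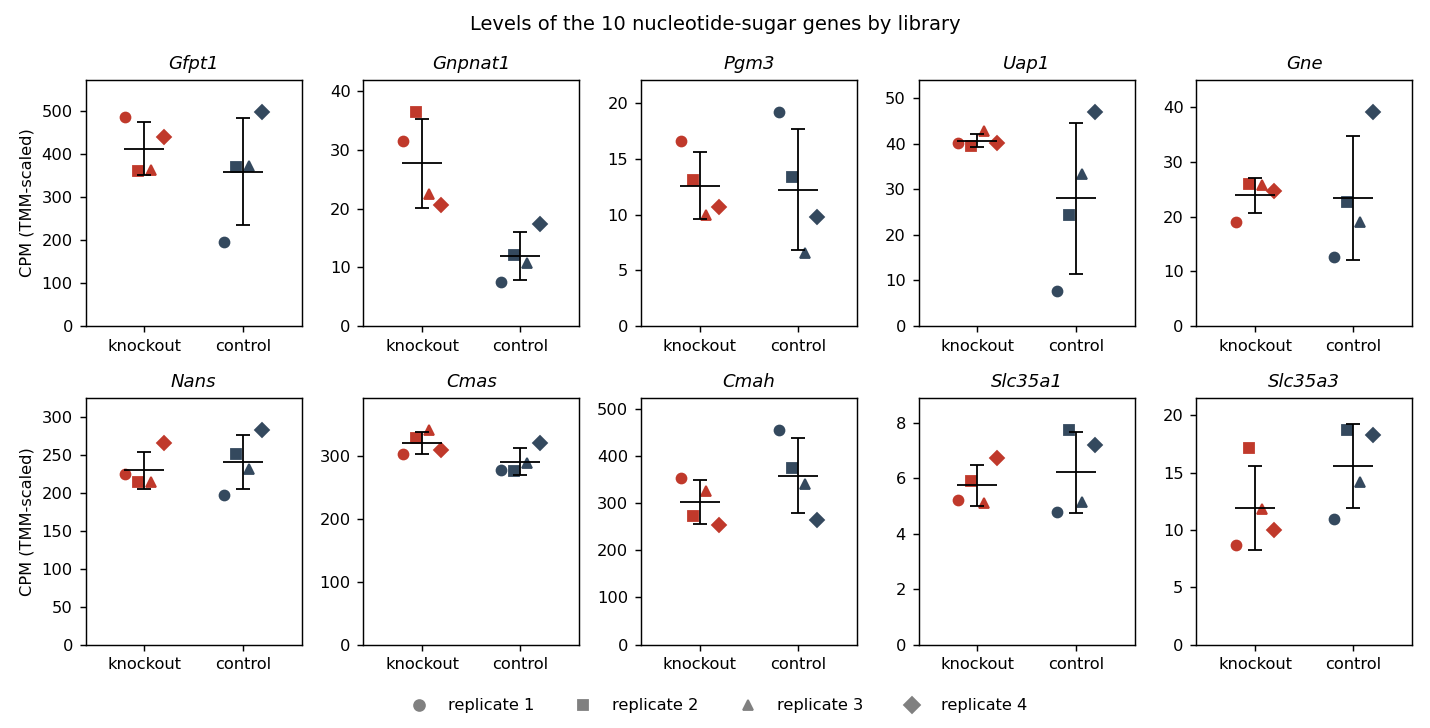
Level of each of the 10 genes in CPM (vertical axes, linear and from 0) in the 4 Jagn1 knockout and the 4 control libraries; symbols are replicates, and the bar and whiskers are the mean and SD. Gnpnat1 lies above all control libraries in all 4 knockout libraries, while Uap1 sits between 39.5 and 42.8 CPM in the knockout and is spread from 7.59 to 47.0 CPM in the control.

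Gfpt1 (chromosome 6, 87042846 to 87092197, plus strand, 21 merged exons, GRCm38, GENCODE M21) supplies the entry step of the route. It was at 486, 361, 362 and 439.8 CPM in knockout replicates 1 to 4, against 196, 369, 371 and 497 CPM in control replicates 1 to 4. The knockout libraries all lay inside the control range, whose low end was control replicate 1 alone. The log2 fold change was 0.20 ± 0.22 (SE, 95% interval -0.26 to 0.67, edgeR adjusted p = 0.702). Its paralog Gfpt2 gave 3 reads in all 8 libraries together, so nearly all reads of glutamine-fructose transaminase genes came from Gfpt1.

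Gnpnat1 (chromosome 14, 45376334 to 45404913, minus strand, 9 merged exons) encodes the acetyltransferase that follows. It was at 31.6, 36.5, 22.4 and 20.6 CPM in knockout replicates 1 to 4, from 235, 254, 171 and 171 counts, against 7.59, 12.1, 10.7 and 17.4 CPM in control replicates 1 to 4, from 54, 75, 77 and 179 counts. Every knockout library was above every control library, with knockout replicate 4 and control replicate 4 closest to each other. The means were 27.8 ± 7.56 CPM in the knockout and 11.96 ± 4.11 CPM in the control (SD, n = 4 each). The log2 fold change was 1.20 ± 0.27 (SE, 95% interval 0.62 to 1.79, edgeR adjusted p = 0.0159). The call was lost without knockout replicate 1 (adjusted p = 0.0625), knockout replicate 2 (0.0858), control replicate 2 (0.0530) or control replicate 3 (0.0610), where the log2 fold change was 1.05 to 1.21, and it held without control replicates 1 and 4 together (1.28, adjusted p = 0.0026). Exons of Gnpnat1 share 3878 bases with Styx on the opposite strand and 74 bases with the miRNA gene Gm25353 on the same strand, and whether counting used strand is not stated in the sources. Styx, a pseudophosphatase gene, was at 40.5 to 52.2 CPM in the knockout and 40.7 to 68.6 CPM in the control (log2 fold change -0.19 ± 0.19, edgeR adjusted p = 0.653).

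Gnpnat1 was also set against Gfpt1 in the same library. Per 100 Gfpt1 reads, knockout replicates 1 to 4 gave 6.49, 10.1, 6.20 and 4.68 Gnpnat1 reads, against 3.87, 3.27, 2.89 and 3.50 in control replicates 1 to 4. The groups did not overlap on this scale either, which is free of the totals. It uses the same Gnpnat1 counts and so is not a second result. For Uap1 the same ratio was 8.255 to 11.8 in the knockout and 3.87 to 9.46 in the control, and for Pgm3 2.43 to 3.63 and 1.77 to 9.82, so both overlapped. These ratios were chosen after the values were seen and were not tested.

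Pgm3 (chromosome 9, 86554377 to 86571842, minus strand, 13 merged exons), the phosphate mutase gene of the route, was at 16.6, 13.1, 9.97 and 10.7 CPM in knockout replicates 1 to 4, against 19.2, 13.4, 6.55 and 9.84 CPM in control replicates 1 to 4. The knockout values fell inside the control range, and control replicate 1, the lowest control for Gfpt1, was the highest one here. Its log2 fold change was 0.04 ± 0.32 (95% interval -0.63 to 0.72, edgeR adjusted p = 0.965). Pgm3 shares 1270 exonic bases with Dop1a on the opposite strand.

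Uap1 (chromosome 1, 170141938 to 170174957, minus strand, 14 merged exons), whose product makes the finished UDP-GlcNAc, had nearly the same level in every knockout library and a wide range in the control. It was at 40.1, 39.5, 42.8 and 40.2 CPM in knockout replicates 1 to 4, against 7.59, 24.3, 33.3 and 47.0 CPM in control replicates 1 to 4. Only control replicate 4 was above the knockout. The highest library was 1.08 times the lowest in the knockout and 6.20 times in the control, where the medians over 9685 genes with counts in all 8 libraries were 1.47 and 1.85. On the log2 scale the SD over control libraries was 1.12, at percentile 94.4 of all genes tested and 99.4 among genes of like average level. The SD of 0.05 over knockout libraries lay at percentile 1.504 of all genes tested. The log2 fold change of 0.53 ± 0.36 did not pass (95% interval -0.26 to 1.31, edgeR adjusted p = 0.501). It was 0.21 without control replicate 1 (adjusted p = 0.617) and 0.89 without control replicate 4 (0.0993).

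**Figure D2:**
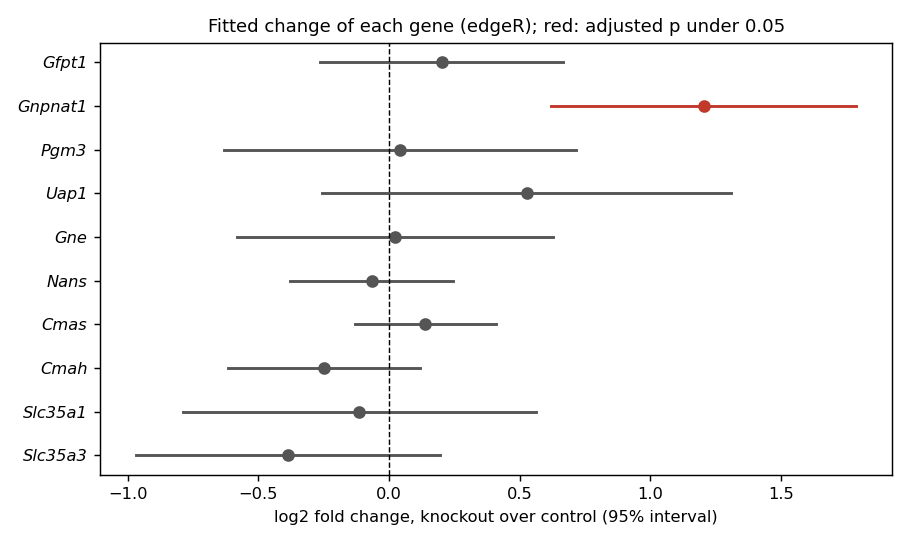
Fitted log2 fold change of each gene, Jagn1 knockout over control (horizontal axis), with its 95% interval; red marks an adjusted p under 0.05. Gnpnat1 has an interval of 0.62 to 1.79, and the intervals of the other 9 genes include 0.

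The control libraries differed among themselves in a shared order for several members. Control replicate 1 was the lowest and control replicate 4 the highest control library for 5 of the 10 genes, Gfpt1, Gnpnat1, Uap1, Gne and Nans, against 19.3% of all genes tested. The reverse order was found for 1 of the 10 genes, Cmah, against 18.5% of all genes tested. These orders were chosen after the values were seen and were not tested. The ratio of control replicate 4 to control replicate 1 was 2.54 for Gfpt1, 2.30 for Gnpnat1, 6.20 for Uap1, 3.10 for Gne and 1.43 for Nans. Xbp1, one of the plasmablast markers, had the same order, at 106, 209.6, 256 and 559 CPM in control replicates 1 to 4 and a ratio of 5.28. Among the other plasmablast markers, Prdm1 and Irf4 also had control replicate 1 lowest and control replicate 4 highest. Sdc1, Tnfrsf17, Slamf7, Cd93, Mzb1 and Jchain did not. In the knockout Xbp1 was at 186, 196, 239.9 and 240.5 CPM, a range of 1.29 times, and its log2 fold change was -0.39 (edgeR adjusted p = 0.643). The counts do not tell spliced from unspliced Xbp1, and the part of Xbp1 level or of plasmablast stage in the spread of the members was not tested.

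**Figure D3:**
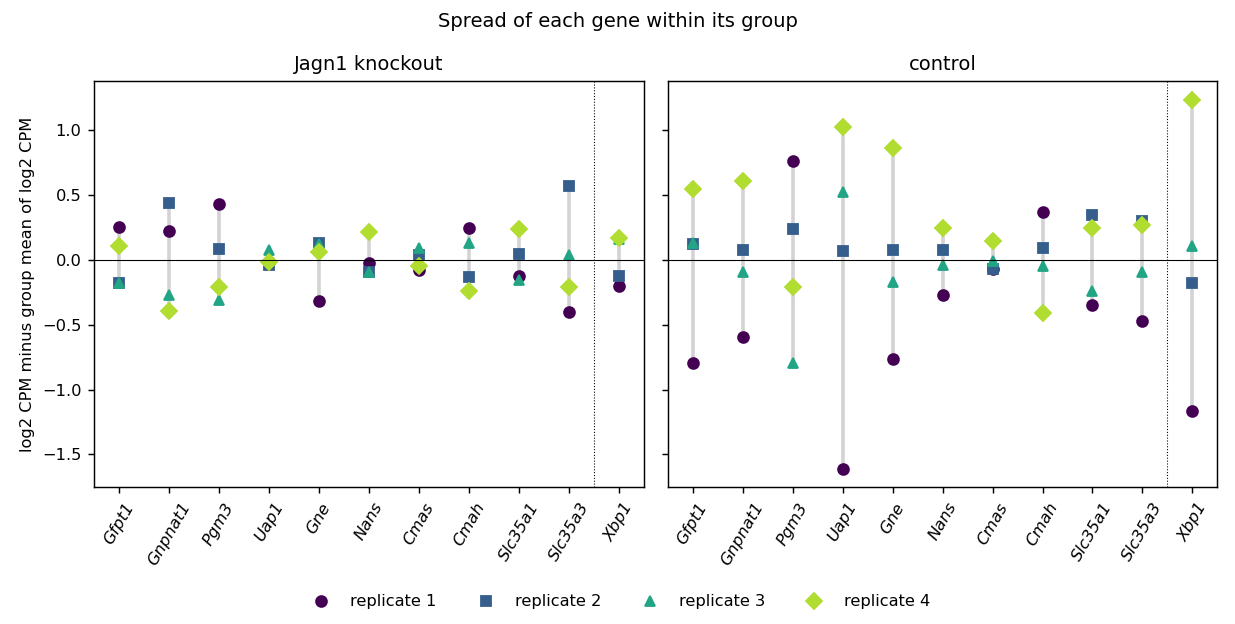
Spread of the 10 genes, and of Xbp1 right of the dotted line, within each group: log2 CPM minus the group's mean of log2 CPM (vertical axis) for the 4 replicates of the Jagn1 knockout (left) and the control (right). In the control, replicate 1 is lowest and replicate 4 highest for Gfpt1, Gnpnat1, Uap1, Gne, Nans and Xbp1, while the knockout libraries lie close together for Uap1.

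None of the 4 genes of the CMP-sialic acid route passed the test. Gne (chromosome 4, 44034075 to 44084177, minus strand, 16 merged exons) encodes the epimerase and kinase that opens the route and is inhibited by its end product. It was at 19.1, 25.9, 25.8 and 24.8 CPM in knockout replicates 1 to 4, against 12.6, 22.7, 19.1 and 39.1 CPM in control replicates 1 to 4. The control again spread around the knockout on both sides, and the log2 fold change was 0.02 ± 0.28 (95% interval -0.58 to 0.63, edgeR adjusted p = 0.981).

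Nans (chromosome 4, 46489248 to 46503632, plus strand, 8 merged exons), the sialic acid phosphate synthase gene, was at 224, 215, 214 and 266 CPM in knockout replicates 1 to 4, against 197, 251, 232 and 282 CPM in control replicates 1 to 4. The groups overlapped, with a log2 fold change of -0.07 ± 0.15 (95% interval -0.38 to 0.25, edgeR adjusted p = 0.872). Nans shares 1356 exonic bases with Trim14 on the opposite strand.

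Cmas (chromosome 6, 142756686 to 142775714, plus strand, 8 merged exons) encodes the nuclear enzyme that activates sialic acid with CMP. It was at 303, 329, 341 and 309 CPM in knockout replicates 1 to 4, against 277, 277, 289.6 and 322 CPM in control replicates 1 to 4. Its control SD of 0.10 on the log2 scale lay at percentile 9.88 among genes of like average level, the steadiest of the 10 genes by that measure. All 4 knockout libraries were above control replicates 1 to 3, and knockout replicates 2 and 3 were also above control replicate 4. The log2 fold change of 0.14 ± 0.13 did not pass (95% interval -0.13 to 0.41, edgeR adjusted p = 0.636).

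Cmah (chromosome 13, 24327404 to 24477377, plus strand, 20 merged exons) encodes the hydroxylase that turns CMP-N-acetylneuraminic acid into the N-glycolyl form. It is inactive in humans, and in mouse germinal centre B cells it is known to be repressed. It was at 354, 273, 327 and 253 CPM in knockout replicates 1 to 4, against 455, 375, 339.96 and 264 CPM in control replicates 1 to 4. The order of the control libraries was the reverse of that of Gfpt1. The log2 fold change of -0.25 ± 0.17 did not pass (95% interval -0.62 to 0.12, edgeR adjusted p = 0.499).

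The carriers bring the finished sugars into the Golgi. Slc35a1 (chromosome 4, 34663257 to 34687438, minus strand, 10 merged exons), the CMP-sialic acid carrier gene, rested on 39 to 56 counts per knockout library and 34 to 74 per control library. It was at 5.24, 5.90, 5.12 and 6.73 CPM in knockout replicates 1 to 4, against 4.78, 7.73, 5.15 and 7.21 CPM in control replicates 1 to 4, and the groups overlapped (log2 fold change -0.11 ± 0.32, 95% interval -0.79 to 0.56, edgeR adjusted p = 0.905). Slc35a3 (chromosome 3, 116669470 to 116712831, minus strand, 13 merged exons), a UDP-GlcNAc carrier gene, was at 8.73, 17.1, 11.8 and 9.98 CPM in knockout replicates 1 to 4, against 10.96, 18.7, 14.2 and 18.3 CPM in control replicates 1 to 4. Its log2 fold change of -0.39 ± 0.27 did not pass (95% interval -0.97 to 0.19, edgeR adjusted p = 0.507). Slc35a3 shares 275 exonic bases with Gm43191 on the same strand.

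Genes around the routes were described from 6 lists of other pathway members. Of 14 genes of UDP-GlcNAc synthesis, salvage and turnover 12 were tested and none was called, with a median log2 fold change of 0.09. An unadjusted edgeR p under 0.05 was found for 2 of the 12, against 18.0% of all genes tested. DESeq2 called 2 of them and limma-voom 1, against 858 and 1054 of all 9904 genes tested. The member with the smallest p was Glul, the glutamine synthetase gene, at 6.85, 4.03, 5.90 and 6.13 CPM in knockout replicates 1 to 4, against 13.9, 7.57, 11.98 and 11.3 CPM in control replicates 1 to 4. Its knockout libraries were all below its control libraries, as for 6.64% of all genes tested. The log2 fold change of Glul was -0.96 ± 0.30 (edgeR adjusted p = 0.0754). In this list the groups did not overlap for 2 of the 12 genes, against 13.1% of all genes tested. Ogt and Mgea5 were chosen after their values were seen. These genes, whose products add and remove O-GlcNAc, had log2 fold changes of 0.13 and 0.15 (edgeR adjusted p = 0.805 and 0.678).

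Of 10 genes of the sialic acid route, release and recycling 7 were tested, of which 2 fell and 0 rose, and the median was -0.47. Over all genes tested 3.19% fell. Neu1, the lysosomal sialidase gene, was at 58.7, 68.2, 61.8 and 86.0 CPM in knockout replicates 1 to 4, against 88.6, 105.5, 112 and 105.8 CPM in control replicates 1 to 4, and fell by 0.58 on the log2 scale (edgeR adjusted p = 0.0454). Siae, which encodes the esterase that removes acetyl groups from sialic acid and restrains B cell receptor signalling in mice, was at 3.09, 4.03, 8.53 and 6.13 CPM in knockout replicates 1 to 4, against 14.2, 12.4, 13.4 and 11.4 CPM in control replicates 1 to 4, and fell by 1.23 on the log2 scale (edgeR adjusted p = 0.0348). No knockout library of either gene reached the lowest control library, which held for 6.64% of all genes tested. With 1 library left out at a time, the call of Neu1 was lost without knockout replicate 1, 2 or 3 or control replicate 2 or 3 (adjusted p 0.115 to 0.165), and that of Siae without knockout replicate 1, 2 or 4 or control replicate 2 or 3 (0.0747 to 0.141). Siae shares 741 exonic bases with Tbrg1 and 391 with Spa17 on the opposite strand. Npl and Neu2 had 0 reads in all 8 libraries.

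Of 20 sialyltransferases 11 were tested and none was called, with a median of -0.29, and DESeq2 and limma-voom called 0. With control replicate 1 left out 1 sialyltransferase was called, among 820 genes in all. With control replicates 1 and 4 left out together 1 was called, among 901 genes in all. An unadjusted edgeR p under 0.05 was found for 1 of the 11, against 18.0% of all genes tested. That gene was St8sia6, whose log2 fold change was -0.43 ± 0.18 (edgeR adjusted p = 0.216). Of 20 enzymes that transfer GlcNAc 16 were tested, of which 2 fell and 0 rose, against 3.19% that fell over all genes tested, and the median was -0.13. Mgat1, which starts complex N-glycans in the Golgi, was at 169, 189, 221 and 225 CPM in knockout replicates 1 to 4, against 242, 290.4, 329 and 383 CPM in control replicates 1 to 4, and fell by 0.63 on the log2 scale (edgeR adjusted p = 0.0323). Mgat4a, a branching enzyme gene, was at 10.1, 12.4, 7.74 and 9.499 CPM in knockout replicates 1 to 4, against 16.6, 16.0, 23.7 and 29.4 CPM in control replicates 1 to 4, and fell by 1.11 (edgeR adjusted p = 0.0184). Neither gene's groups overlapped, as for the 6.64% of all genes tested whose knockout libraries were all lower. The call of Mgat1 was lost when any 1 knockout library or control replicate 2 or 3 was left out (adjusted p 0.0503 to 0.136) and that of Mgat4a without knockout replicate 1, 3 or 4 or control replicate 3 (0.0590 to 0.0792).

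Of 20 other nucleotide-sugar enzymes 19 were tested and 1 fell, with a median of -0.03, and this count is near the 3.19% that fell over all genes tested. Galk1, the galactokinase gene, was at 64.9, 80.8, 59.5 and 54.7 CPM in knockout replicates 1 to 4, against 156, 106, 106 and 107 CPM in control replicates 1 to 4, and fell by 0.87 on the log2 scale (edgeR adjusted p = 0.00806). Its call held under all 18 alternatives run. Of 16 other carriers of the SLC35 family 15 were tested and none was called, with a median of -0.02, and DESeq2 and limma-voom called 0. With control replicates 1 and 4 left out together 1 carrier was called, among 901 genes in all. An unadjusted edgeR p under 0.05 was found for 0 of the 15, against 18.0% of all genes tested. The smallest p was that of Slc35c2, whose log2 fold change was 0.45 ± 0.24 (edgeR adjusted p = 0.335).

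**Figure D4:**
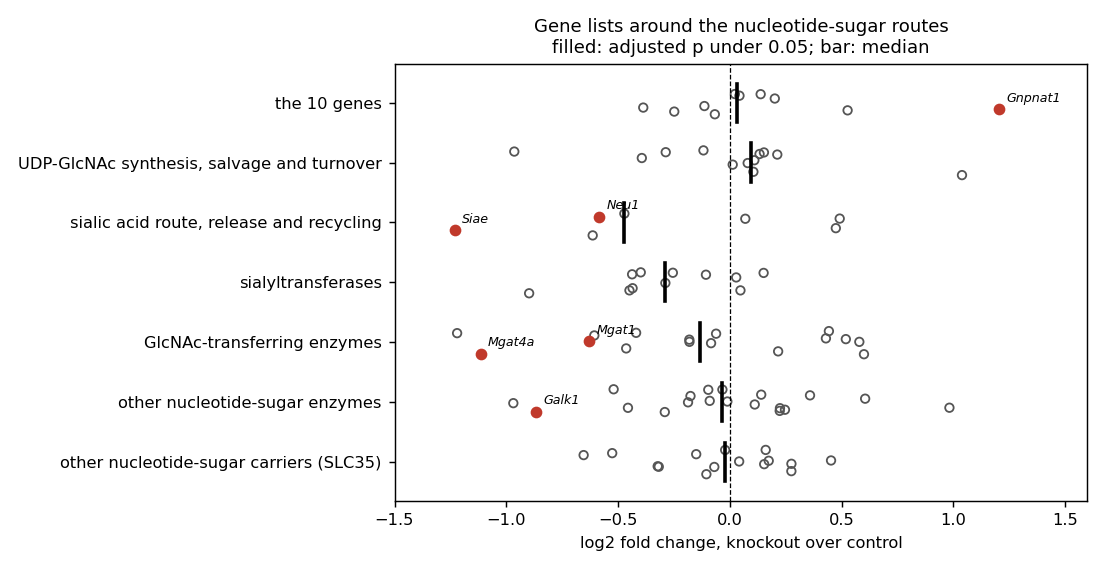
Log2 fold change, Jagn1 knockout over control (horizontal axis), of every tested gene in the 10 members and in the 6 lists of other pathway genes; filled points passed the edgeR test and black bars are medians. Gnpnat1 is the filled point above 0, and Siae, Neu1, Mgat4a, Mgat1 and Galk1 are the filled points below 0.

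The genes outside the members whose log2 CPM followed Gnpnat1 most closely over the 8 libraries were Papd5 (Pearson r = 0.989), Naa30 (0.9749), Derl1 (0.966), Ctage5 (0.965) and Tbpl1 (0.961). The 8 points share the difference between genotypes and the same libraries, so these values describe likeness and were not tested. Their log2 fold changes were 1.08, 0.44, 0.58, 0.72 and 0.93 in the same order, and Naa30 was the 1 gene of these 5 that did not pass (edgeR adjusted p = 0.272). Over all genes tested 2.54% passed as higher. Because the 5 were picked for following Gnpnat1 over both genotypes, their shared direction comes with the choice and is not a further result.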

How the data were processed

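RNA of sorted plasmablasts was read as QuantSeq 3′ mRNA-Seq (FWD) libraries from 500 ng of total RNA, per the labels' protocols. The authors deposited 1 file per library with raw whole-number counts per gene symbol, per the file headers. The submitters' processing notes name HTSeq 0.6.1, TopHat2 2.1.1, BWA 0.7.12, SAMtools 1.3.1 and the mm10 build without their roles. These sources give neither the annotation nor whether counting used strand. Reads carry no stated molecular identifiers. Control totals spanned 5882912 to 10066661 counts.

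Groups came from the sample titles. Genes were filtered with filterByExpr (minimum count 10, minimum total 15), scaled by TMM and tested with edgeR 4.0.16 (R 4.3.3) by a robust quasi-likelihood F-test, two-sided, group as the only term, with Benjamini-Hochberg adjustment over all 9904 genes and a threshold of 0.05. Standard errors are the log2 fold change over the square root of F, and intervals use t quantiles. Log2 CPM used a prior count of 2. The steps were tested on simulated data, where 25.4% of 1.5-fold, 50.7% of 2-fold and 97% of 4-fold changes were called. Of 122 simulated calls 7 were false. A gene that did not pass may therefore still differ by such smaller folds. Libraries within a group differed by more than sampling noise in every pair (chi-square per degree of freedom 6.60 to 94.2 over genes with 20 or more reads). Positions and exon overlaps are from GENCODE M21. Named genes are the 10 members, Jagn1, every called gene of the 6 lists or the 1 with the smallest p, and the 5 genes most like a called member; others are said to be chosen later, or stand beside a member as background. Members and lists were chosen with earlier results of these data known. Alternatives were other tools (limma 3.58.1 as limma-voom with sample weights, and DESeq2 1.42.0), other scalings and filters, no robust estimation, a replicate block, leaving out each library, and, added later, leaving out control replicates 1 and 4 together.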

Additional observations from a re-analysis of the deposited data

Results flagged for a closer look

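Gne in knockout replicate 1, at 19.1 CPM, lay apart from the other knockout libraries at 24.8 to 25.9 CPM. Its gap to the nearest library was 0.837 of the group's range, above the 95% critical value of Dixon's test for 4 samples. It was 1 of 20 groups looked at (10 genes in 2 genotypes), and chance flags about 1 in 20.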

How the results depend on the processing

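Of 10 members 1 was called in all alternatives with 8 libraries, and 0 to 1 when a library was left out; 0 were called lower throughout. Over all genes 568 were called, 858 with DESeq2, 1054 with limma-voom, 270 to 892 with 1 library left out and 901 without control replicates 1 and 4 together. The log2 fold change of Gnpnat1 was 1.04 to 1.44 with 1 library left out. Fold changes of members near 0 changed sign 11 times, over 8 settings, none of them called: Gne was -0.016 with library totals only, and with 1 library left out the ranges were -0.00042 to 0.39 for Gfpt1, -0.16 to 0.35 for Pgm3, -0.18 to 0.39 for Gne, -0.15 to 0.0083 for Nans and -0.22 to 0.0020 for Slc35a1. The cause was not tested. Jagn1 was called in all 17 alternatives that kept it, and the stricter filter dropped it. Counts of called genes by list differed in 29 of 108 cases, by at most 2 genes.

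Replicate numbers are shared between genotypes, but same-numbered libraries did not deviate together (r over genes -0.003 to 0.066), and not every library correlated best with its own number. With a replicate block 509 genes were called, Gnpnat1 kept its call (1.22, adjusted p = 0.0245), and Neu1 did not (-0.59, adjusted p = 0.0567).

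Slc35a1 rested on 34 to 74 counts per library, and its interval of -0.79 to 0.56 was wide.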

Other observations

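Further pathway genes were looked at after their values were seen. St6gal1, which encodes the main sialyltransferase of B cells and of antibody glycans, was at 139, 152, 167 and 153 CPM in knockout replicates 1 to 4, against 61.8, 108, 139 and 241 CPM in control replicates 1 to 4, and its log2 fold change of 0.15 ± 0.29 did not pass (edgeR adjusted p = 0.856). Like Uap1, it was close to even over the knockout libraries and spread over the control libraries, in the order of Xbp1. Uap1l1, from the UDP-GlcNAc list, had the reverse order, at 150, 144, 119 and 72.5 CPM in control replicates 1 to 4. In knockout replicates 1 to 4 Uap1l1 was at 95.1, 93.5, 93.0 and 88.0 CPM, and its log2 fold change was -0.39 ± 0.20 (edgeR adjusted p = 0.306). Gnpda2, whose product returns glucosamine phosphate to glycolysis, was at 7.12, 8.05, 7.08 and 6.01 CPM in knockout replicates 1 to 4, against 2.81, 2.42, 4.32 and 4.09 CPM in control replicates 1 to 4. Its groups did not overlap, as for 13.1% of all genes tested, and its log2 fold change of 1.04 ± 0.35 did not pass (edgeR adjusted p = 0.101). Nanp, the phosphatase gene between Nans and Cmas, was at 14.4 to 20.9 CPM in the knockout and 19.1 to 28.6 CPM in the control, and its log2 fold change was -0.61 ± 0.22 (edgeR adjusted p = 0.125).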
